A study of Rattus norvegicus with 8 samples.

Results

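The 87 genes described here encode subunits of the mitochondrial respiratory chain and of ATP synthase, and a few proteins that share their names. They were chosen by gene symbol alone, from probe sets that carry 1 symbol in the platform annotation. A symbol qualified if it began with Ndufa, Ndufb, Ndufc, Ndufs, Ndufv, Uqcr, Cox4 to Cox8 or Atp5, or was Sdha, Sdhb, Sdhc, Sdhd, Cyc1 or Cycs. The array holds 14217 genes named in this way, and the chosen genes have 97 of the 31042 probe sets tested. Where a gene had several probe sets, the one with the highest mean over the 8 arrays stood for it. Of the 87 genes, 77 encode subunits: 34 of complex I, 4 of complex II, 8 of complex III, 16 of complex IV and 15 of complex V, the ATP synthase. A further 6 are assembly factors of complex I (Ndufaf1, Ndufaf3, Ndufaf4, Ndufaf5, Ndufaf7 and Ndufaf8). The last 4 share only the naming pattern: Atp5if1 encodes the inhibitor of ATP synthase, Cox7a2l a factor that joins complexes III and IV, Ndufa4l2 a relative of Ndufa4, and Cox6c-ps1 is a pseudogene by its symbol. Ndufa4 was counted with complex IV, where its protein is now placed. Subunits encoded by mitochondrial DNA do not match the rule.

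RNA came from 8 hearts of male Wistar rats of about 300 g, a common outbred laboratory strain. Each heart was removed and perfused for 2 h through the aorta (Langendorff perfusion), without recirculation of the perfusate. The perfusate of 4 control hearts held no drug, and that of the other 4 held 2 µM doxorubicin, an anthracycline that intercalates into DNA and poisons topoisomerase II. Hearts were labelled as biological replicates, 1 to an Affymetrix array, so each difference rests on 4 hearts against 4. The levels are log2 of the deposited RMA intensity, and a level of 1 probe set cannot be set against that of another. In bulk heart RNA, fewer cells of a type and less RNA per cell cannot be told apart.

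The respiratory chain passes electrons from NADH through complex I, and from succinate through complex II, to coenzyme Q. Complex III carries them on to cytochrome c and complex IV to oxygen. Complexes I, III and IV pump protons across the inner mitochondrial membrane, and ATP synthase uses the return of protons to make ATP. Cardiac muscle is dense in mitochondria and draws most of its ATP from this pathway, and the heart is the organ in which anthracyclines are best known for toxicity.

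The tissue label was borne out by 9 measured markers of cardiomyocytes, none of them dim. The level of Myh6, the atrial and rodent ventricular myosin heavy chain, lay between 13.88 and 14.14 in the 8 hearts. That of Tnnt2, cardiac troponin T, lay between 13.92 and 14.02. Some markers of the atria and of fat differed widely from heart to heart: 4 of 5 measured atrial markers, 3 of 7 of white fat and 1 of 9 of brown fat (Ucp1) had a range over the hearts above 1 on the log2 scale. The level of Myl7, an atrial myosin light chain, was 5.03, 11.3, 10.2 and 7.01 in control hearts 1 to 4 and 10.3, 9.45, 6.90 and 12.3 in doxorubicin hearts 1 to 4. The level of Ucp1, the uncoupling protein of brown fat, was 4.50, 6.62, 4.32 and 4.41 in the controls and 5.77, 4.47, 4.27 and 9.54 with doxorubicin. Both were highest in doxorubicin heart 4. Control heart 1 and doxorubicin heart 2 stood apart from the other hearts in the genes described here, and results are therefore also given without them.

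None of the 87 genes passed the test for a change after 2 h of doxorubicin. By limma with Benjamini-Hochberg adjustment over all probe sets tested, 0 of 87 genes passed an adjusted p of 0.05, where 2.97% of all named genes and 2.21% of all probe sets did. The lowest adjusted p among the 87 was 0.264, for Cox5a. At an unadjusted p under 0.05, 3 genes were higher (Ndufaf1, Ndufaf4 and Cox7a2l) and 1 was lower (Cox5a), which is 4.6% of the 87. Of all named genes, 16.7% lay under that unadjusted threshold, 9.67% higher and 7.07% lower. The 4 values of one group lay wholly above or below those of the other for 5 genes that were higher and 2 that were lower with doxorubicin, 8.05% of the 87. The same held for 10.4% of all named genes, 5.75% higher and 4.69% lower. The 5 were Sdha, Sdhd, Atp5f1a, Ndufaf4 and Cox7a2l, and the 2 were Cox5a and Ndufa12, a complex I subunit named after its values were seen. By these counts the 87 genes were called no more often than other genes on the array. A probe set outside the rule, which carries 2 symbols of the Ndufa family and so names no gene here, rose by 0.67 (adjusted p = 0.00583 by limma).

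The differences were small and their intervals narrow for most of the genes. The median log2 difference, doxorubicin minus control, was -0.034 over the 87 genes, against 0.0063 over all named genes. It ranged from -0.63 for Atp5me to 0.22 for Ndufaf1, with 34 differences above 0 and 53 below. Among all 14217 named genes, 7375 were above 0 and 6842 below. Over the 87 genes the standard error of the difference had a median of 0.08 and ran from 0.048 to 0.45. For 79 of the 87 genes (90.8%) the 95% interval of the difference lay within 1.5-fold in either direction, and for 45 (51.7%) within 1.2-fold. Among all named genes these shares were 91.5% and 44.7%. The interval of 8 genes reached a level 1.5-fold lower with doxorubicin: Ndufb1, Ndufa3, Ndufa5 and Ndufa2 of complex I, Cox7a1 and Cox8b of complex IV, and Atp5me and Atp5mk of ATP synthase. That of Cox7a1 also reached 1.5-fold higher. For these 8 genes the interval does not exclude a fall of that size, and the data do not show that they were equal in both groups.

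**Figure D1:**
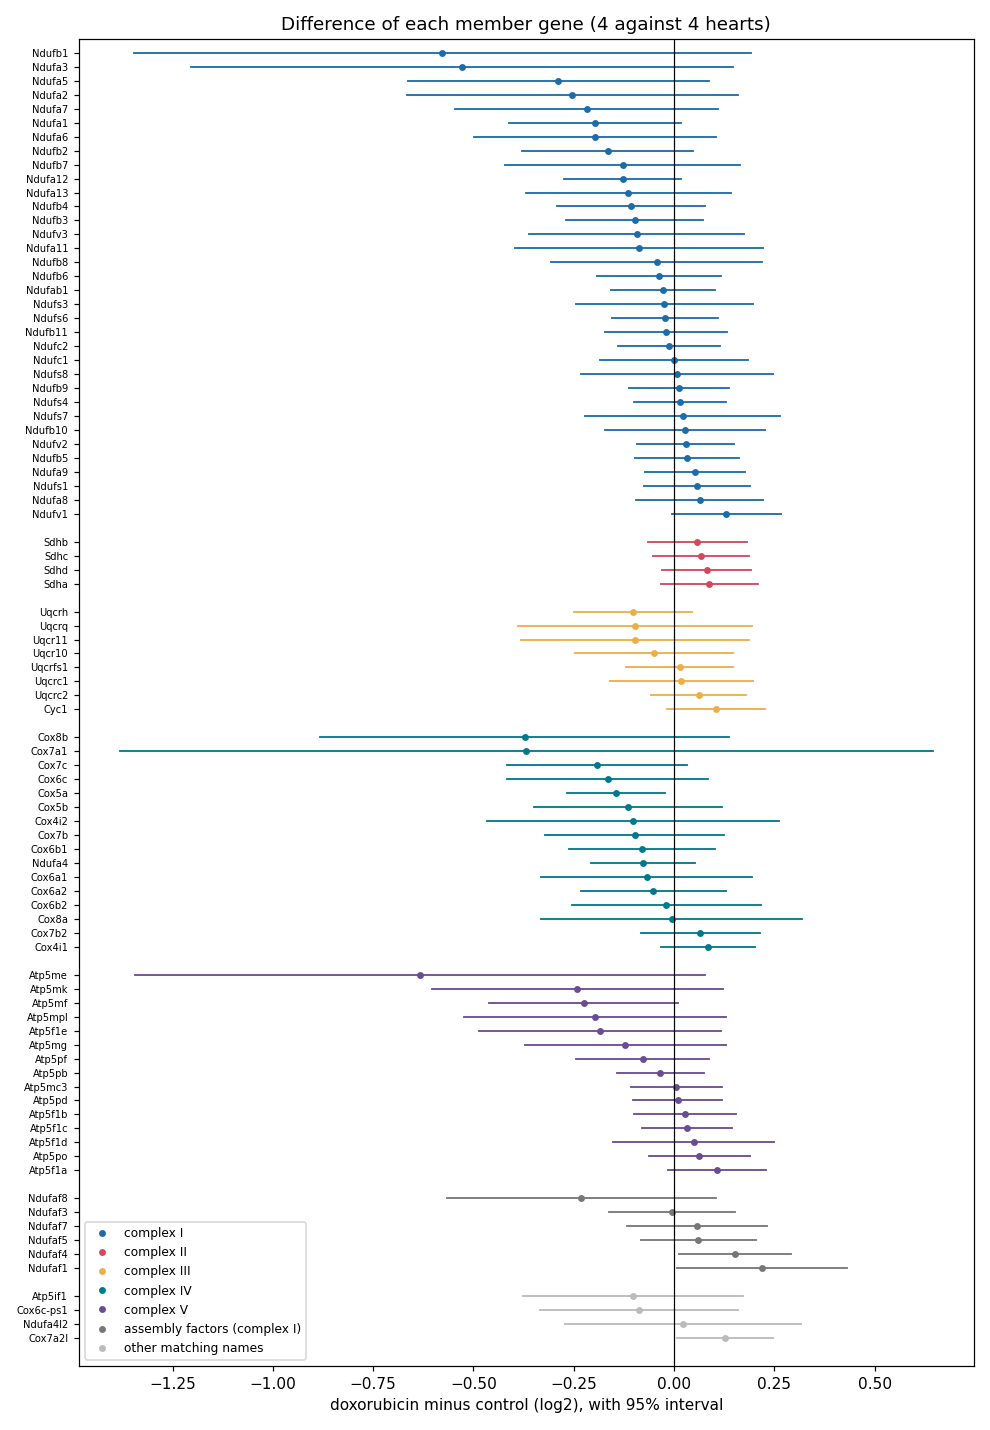
Difference in log2 level, doxorubicin minus control, of the 87 genes grouped by complex, each point with its 95% interval from limma and 4 hearts a group. Most intervals span 0 and stay within 1.5-fold, and the widest belong to Cox7a1, Ndufb1 and Atp5me.

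Which way the genes leaned depended on control heart 1. With all hearts 34 differences were above 0 and 53 below; without control heart 1 these numbers were 55 and 32, and the median difference was 0.015 in place of -0.034. Without doxorubicin heart 2 they were 40 and 47, with a median of -0.013. The number of genes that changed was 0 in each case, with a lowest adjusted p by limma of 0.289 (Ndufv1) without control heart 1 and 0.299 (Cox7a2l) without doxorubicin heart 2.

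Complex I takes electrons from NADH. Its median difference was -0.033 over 34 genes, with 11 above 0 and 23 below, and 0.0067 without control heart 1. The 6 measured core subunits, which hold the flavin and iron-sulfur clusters or line the path to coenzyme Q, had a median of 0.025, and 5 of the 6 were above 0. The 28 accessory subunits, which surround the core and are needed for assembly and stability, had a median of -0.09, and 6 of the 28 were above 0. Without control heart 1 the core median was 0.084, with 6 of 6 above 0, and the accessory median was -0.00011, with 14 of 28 above 0. Without doxorubicin heart 2 they were 0.044 and -0.041, and without control heart 2 the core median was 0.0012. Sorting into core and accessory subunits was made after the values were seen, so these are descriptions only.

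Ndufv1 binds NADH and the flavin. Its level was 12.67, 12.54, 12.56 and 12.53 in control hearts 1 to 4 and 12.71, 12.68, 12.80 and 12.63 in doxorubicin hearts 1 to 4. Doxorubicin hearts 1 to 3 lay above all controls, and doxorubicin heart 4 lay below control heart 1. The difference was 0.13, the highest in complex I, with an interval from -0.0063 to 0.27 and an adjusted p of 0.396 by limma. Ndufs1, the largest iron-sulfur subunit, was at 12.56, 12.73, 12.72 and 12.73 in the controls and 12.75, 12.78, 12.74 and 12.71 with doxorubicin. Control heart 1 was the lowest of the 8, and the difference was 0.057 (interval -0.074 to 0.19).

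Ndufb1, a small accessory subunit of the membrane arm, had the lowest difference in complex I. Its level was 10.81 in control heart 1 and 9.40, 9.51 and 9.57 in the other controls, and 9.64, 8.49, 9.69 and 9.18 with doxorubicin. Control heart 1 stood far above every other heart and doxorubicin heart 2 far below, and the groups overlapped. The difference was -0.58 with an interval from -1.35 to 0.19, and it was -0.25 without control heart 1. Ndufa12, an accessory subunit of the arm that faces the matrix, was at 12.51, 12.30, 12.26 and 12.32 in the controls and 12.25, 12.20, 12.20 and 12.23 with doxorubicin. The groups did not overlap, yet the gap between them was narrow beside the spread of the controls (difference -0.13, interval -0.27 to 0.018).

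Complex II is succinate dehydrogenase, an enzyme of the citric acid cycle as well as of the respiratory chain. Among all 14217 named genes, 7375 had a difference above 0. All 4 complex II genes did, from 0.058 to 0.088, and none passed the test. The highest bound of their 95% intervals was 0.21 and the lowest -0.066, so all 4 stayed within 1.2-fold. Sdha, the flavoprotein that oxidizes succinate, was at 12.63, 12.74, 12.74 and 12.75 in the controls and 12.84, 12.78, 12.81 and 12.78 with doxorubicin. Every doxorubicin heart was above every control, by a margin smaller than the gap between control heart 1 and the other controls. Its difference was 0.088, and 0.059 without control heart 1, with an adjusted p of 0.553 by limma over all 8 hearts. Sdhb, the iron-sulfur subunit, was at 13.12, 13.23, 13.19 and 13.20 in the controls and 13.27, 13.27, 13.26 and 13.16 with doxorubicin. Here doxorubicin heart 4 lay among the controls, and the difference was 0.058 (interval -0.066 to 0.18). The membrane anchors Sdhc and Sdhd had differences of 0.068 and 0.081.

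Complex III passes electrons from coenzyme Q to cytochrome c. The 4 genes of its catalytic and core proteins (Cyc1, Uqcrfs1, Uqcrc1 and Uqcrc2) were all above 0, with a median of 0.04. The 4 genes of its small accessory subunits (Uqcrh, Uqcrq, Uqcr10 and Uqcr11) were all below 0, with a median of -0.098. Their sign rested on control heart 1, the highest of the 8 hearts for all 4: without it 3 of the 4 were above 0, with a median of 0.013, while the catalytic and core proteins had 0.063. Without doxorubicin heart 2 the accessory median was -0.018. None of the 8 genes passed the test. Cyc1, the cytochrome c1 subunit, was at 12.87, 12.99, 12.95 and 12.91 in the controls and 13.05, 13.08, 12.98 and 13.02 with doxorubicin, and the groups overlapped by a small margin. Its difference of 0.10 was the highest in complex III (interval -0.017 to 0.23). Uqcrfs1, the Rieske iron-sulfur protein, differed by 0.014, with an interval from -0.12 to 0.15. Uqcrh, the hinge protein that helps cytochrome c dock, had the lowest difference, -0.10 (interval -0.25 to 0.046). Cytochrome c itself (Cycs) had only probe sets with several symbols and is not among the 87.

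Complex IV reduces oxygen, and all of its genes measured here encode nuclear subunits around a catalytic core that mitochondrial DNA encodes. Its median difference was -0.089 over 16 genes, 14 of them below 0, and 0.0067 without control heart 1. Cox4i1, the common isoform of subunit 4, was at 13.24, 13.35, 13.29 and 13.33 in the controls and 13.40, 13.38, 13.34 and 13.41 with doxorubicin. The groups overlapped only between control heart 2 and doxorubicin heart 3, and the difference was 0.085 (interval -0.033 to 0.20). Cox5a, which binds a thyroid hormone metabolite and sits on the matrix side, was at 7.82, 7.78, 7.80 and 7.81 in the controls and 7.75, 7.61, 7.61 and 7.66 with doxorubicin. All doxorubicin hearts were below all controls, and the 4 controls hardly differed from each other. The difference was -0.15 (SE 0.054, interval -0.27 to -0.024), and it did not pass the test after adjustment (adjusted p = 0.264 by limma). A brighter probe set that lists Cox5a beside another symbol differed by 0.013 (interval -0.12 to 0.14), so no gene is named from it and the lower level was seen on 1 probe set alone.

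Several complex IV subunits come as pairs of isoforms, of which one is the form of heart and skeletal muscle. Cox6a2 and Cox8b are muscle forms, and their partners Cox6a1 and Cox8a are the forms of most other tissues. Cox6a1 differed by -0.068 and Cox6a2 by -0.052. Cox8a differed by -0.0061 (interval -0.33 to 0.32) and Cox8b by -0.37 (interval -0.88 to 0.14). Cox4i2, the isoform of subunit 4 linked to low oxygen, differed by -0.10 and had its highest level in control heart 1. Cox6b1 differed by -0.079. Its testis partner Cox6b2 differed by -0.02, and Cox6b2 and Cox7b2 were dim, with means in the lowest 25% of all probe sets.

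Cox7a1, the muscle isoform of subunit 7a, varied most of all 87 genes. Its level was 10.10 in control heart 1 and 7.94, 8.08 and 8.06 in the other controls, and 8.52, 7.58, 8.62 and 7.99 with doxorubicin. Control heart 1 was far above all the others, doxorubicin heart 2 was the lowest, and the groups overlapped. The difference was -0.37 with an interval from -1.38 to 0.64, and it was 0.15 without control heart 1. Its partner Cox7a2 had only a probe set with several symbols.

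ATP synthase has an F1 part, made of the catalytic head and a central stalk. It also has a peripheral stalk that holds the head in place, called the stalk here, and a membrane part with the proton-driven rotor. The median difference was 0.032 over 5 F1 genes, -0.013 over 4 stalk genes and -0.21 over 6 membrane genes, and -0.034 over all 15. The membrane median was -0.08 without control heart 1 and -0.12 without doxorubicin heart 2, with 5 of 6 genes below 0 in both cases. The F1 median ran from 0.0091 without doxorubicin heart 3 to 0.056 without control heart 1. Atp5f1a, the alpha subunit of the head, was at 13.44, 13.51, 13.45 and 13.52 in the controls and 13.55, 13.65, 13.62 and 13.53 with doxorubicin. All doxorubicin hearts were above all controls, and the difference of 0.11 (interval -0.014 to 0.23) had an adjusted p of 0.443 by limma. Atp5f1b, the catalytic beta subunit, was at 13.59, 13.44, 13.51 and 13.47 in the controls and 13.55, 13.47, 13.58 and 13.51 with doxorubicin. The groups overlapped throughout, and the difference was 0.027 (interval -0.10 to 0.16).

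Atp5me, the small e subunit of the membrane part that helps ATP synthase form dimers, had the lowest difference of all. Its level was 11.23, 9.88, 10.09 and 10.04 in the controls and 9.88, 8.99, 10.17 and 9.68 with doxorubicin. Control heart 1 was again far above the rest and doxorubicin heart 2 far below. The difference was -0.63 (interval -1.34 to 0.078, adjusted p = 0.439 by limma), and it was -0.33 without control heart 1 and -0.40 without doxorubicin heart 2. A dimmer second probe set of the gene differed by 0.017 (interval -0.16 to 0.20). Atp5mc3, which encodes the rotor's c subunit, differed by 0.0056 (interval -0.11 to 0.12), and its level in the 8 hearts spanned only 0.088. Its sister genes Atp5mc1 and Atp5mc2 had only probe sets with several symbols.

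**Figure D2:**
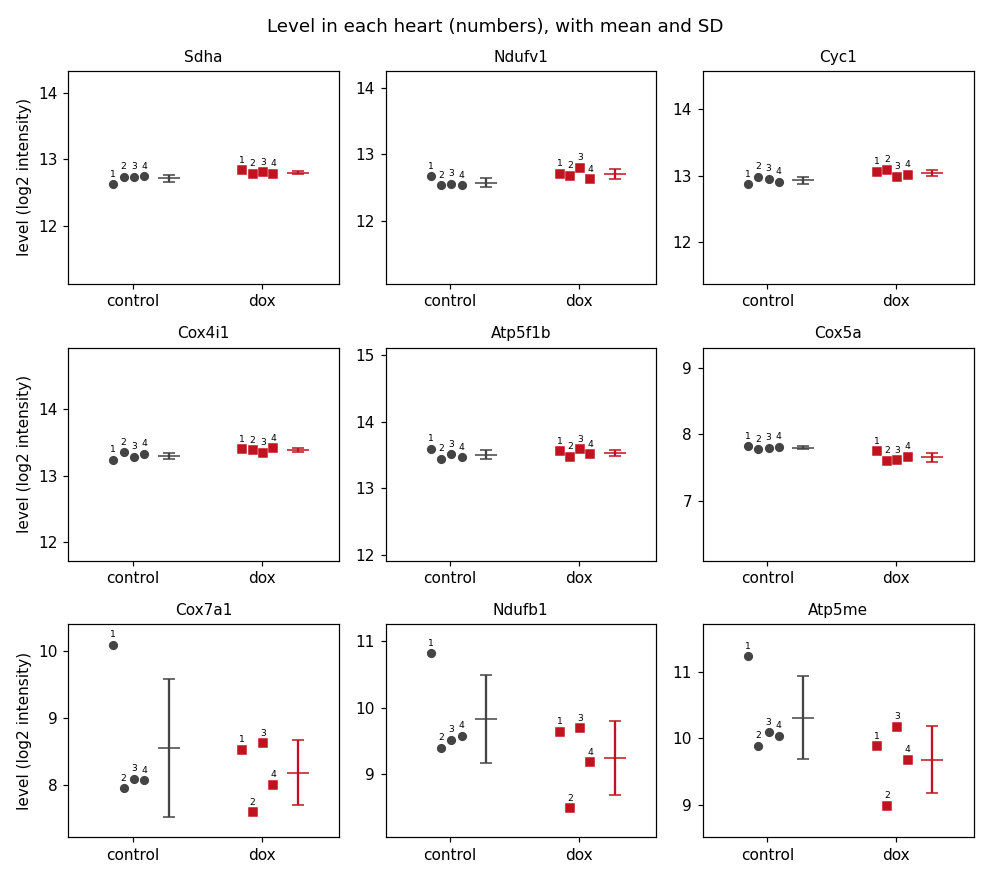
Log2 level of 9 genes in each heart, control and doxorubicin, with points numbered by heart and the mean ± SD of 4 hearts; every panel spans the same height on the log2 axis. Sdha, Ndufv1, Cyc1, Cox4i1, Atp5f1b and Cox5a varied little, while Cox7a1, Ndufb1 and Atp5me were high in control heart 1 and low in doxorubicin heart 2.

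The 6 assembly factors of complex I had a median difference of 0.058, which ran from 0.03 without control heart 4 to 0.098 without control heart 2. Ndufaf1, which builds the membrane arm, was at 5.833, 5.996, 5.691 and 5.507 in the controls and 6.004, 5.990, 5.947 and 5.963 with doxorubicin. The doxorubicin hearts lay close together at the top of the range of the controls. Its difference of 0.22 (interval 0.0067 to 0.43) was the highest of the 87, with an adjusted p of 0.349 by limma over all hearts and from 0.0975 to 0.59 when 1 heart was left out. Ndufaf4, a partner of Ndufaf3, was at 9.77, 9.81, 9.68 and 9.81 in the controls and 10.02, 9.83, 9.89 and 9.94 with doxorubicin, with no overlap. Its difference was 0.15 (interval 0.012 to 0.29). Ndufaf8, which acts on Ndufaf5, had the lowest difference of the 6, -0.23 (interval -0.57 to 0.10), and was highest in control heart 1, at 9.85.

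Of the genes that share only the name, Cox7a2l was at 10.64, 10.64, 10.68 and 10.66 in the controls and 10.79, 10.70, 10.80 and 10.84 with doxorubicin. All doxorubicin hearts were above all controls, and the difference was 0.13 (SE 0.054, interval 0.0079 to 0.25). The adjusted p was 0.331 by limma. Atp5if1, which blocks ATP hydrolysis when the membrane potential falls, differed by -0.10 (interval -0.38 to 0.17).

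Much of the spread among these genes lay in single hearts. Each gene's level in a heart was set against its own mean over the 8 hearts, and the median of these deviations over the 87 genes was 0.22 in control heart 1. It was -0.023, -0.048 and -0.028 in control hearts 2 to 4, and 0.045, -0.089, 0.043 and -0.053 in doxorubicin hearts 1 to 4. Over all named genes the median deviation lay between -0.012 and 0.0097 in every heart. Control heart 1 had the highest of the 8 values for 60 of the 87 genes (69%), against 19.1% of all named genes. Doxorubicin heart 2 had the lowest for 40 (46%), against 9.19%. Neither trait was particular to the 87 genes. Among 48 cytosolic ribosomal protein genes, 50% were highest in control heart 1 and 60.4% lowest in doxorubicin heart 2. For 73 mitochondrial ribosomal protein genes these shares were 53.4% and 16.4%. The 12 genes of coenzyme Q synthesis had a median deviation of 0.21 in control heart 1 and -0.069 in doxorubicin heart 2.

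The high values of control heart 1 were unevenly spread over the complexes. The median deviation there was 0.43 over the membrane genes of ATP synthase, 0.30 over the accessory genes of complex III, 0.29 over complex IV and 0.26 over the accessory genes of complex I. It was 0.14 over the core genes of complex I, 0.013 over the stalk genes of ATP synthase and -0.082 over complex II. In doxorubicin heart 2 the lowest medians were again those of the membrane genes of ATP synthase, -0.31, and of the accessory genes of complex III, -0.21. In control heart 1, 12 of the 87 genes were at least 0.5 above their own mean (13.8%), against 2.07% of all named genes. The median residual SD was 0.12 over the 87 genes and 0.12 over all named genes on the log2 scale.

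**Figure D3:**
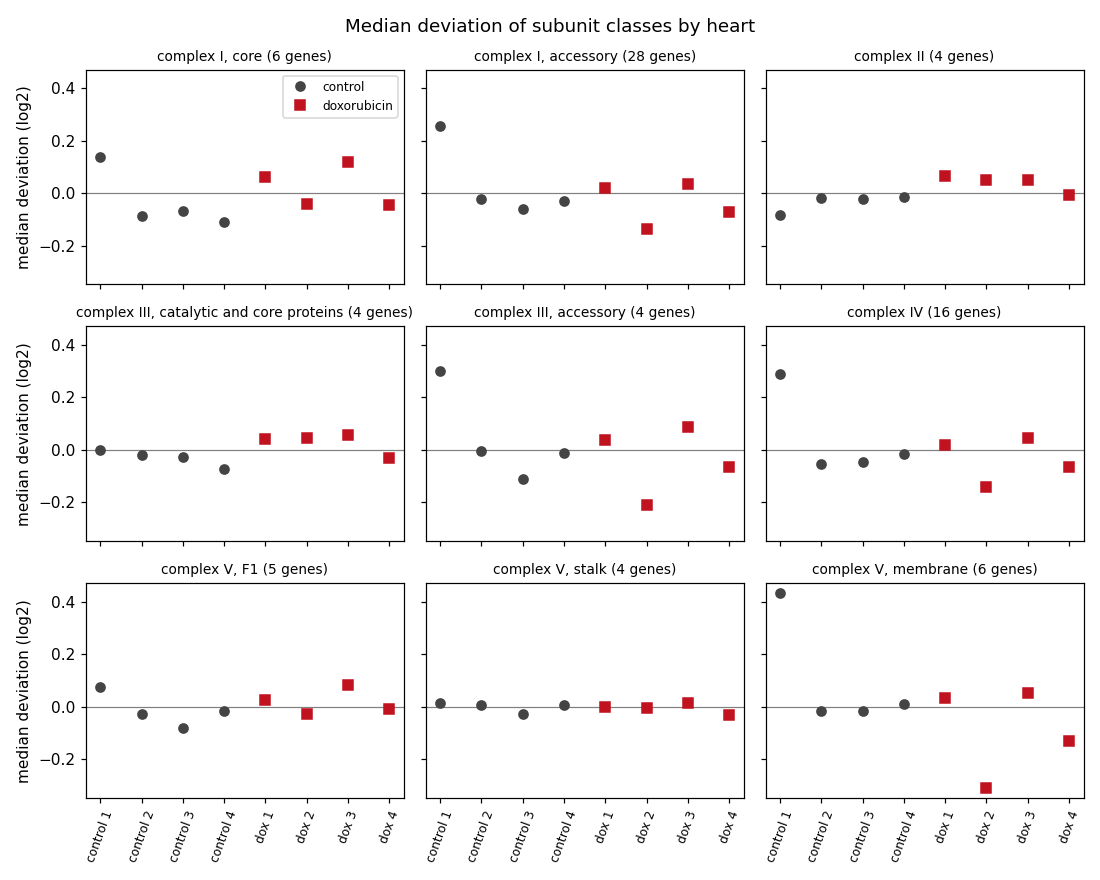
Median deviation of each class of subunit from each gene's mean over 8 hearts, on a log2 scale, with 1 point per heart. Control heart 1 reached 0.43 for the membrane genes of ATP synthase and was below 0 for complex II.

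The genes with the widest range over the 8 hearts were Cox7a1 (2.52), Ndufb1 (2.33), Atp5me (2.25), Ndufa3 (1.90), Cox8b (1.54) and Ndufa2 (1.18), on the log2 scale. The narrowest were Atp5pd (0.064) and Atp5pb (0.067), both stalk genes of ATP synthase, and Atp5mc3 (0.088). Control means of the widest, in the order above, were 8.55, 9.83, 10.31, 11.22, 12.95 and 11.06. Those of the narrowest were 13.09, 13.36 and 13.31. Whether bright probe sets, near the upper end of the scale, hide differences between hearts was not tested. Ndufa3, an accessory subunit of complex I, was at 12.18, 10.76, 11.03 and 10.92 in the controls and 11.02, 10.28, 11.03 and 10.44 with doxorubicin. Cox8b was at 13.53, 12.73, 12.74 and 12.80 in the controls and 12.85, 11.996, 12.89 and 12.57 with doxorubicin. In both genes control heart 1 was the highest and doxorubicin heart 2 the lowest, as in Cox7a1, Ndufb1 and Atp5me. Atp5pd lay between 13.06 and 13.12 in all hearts.

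**Figure D4:**
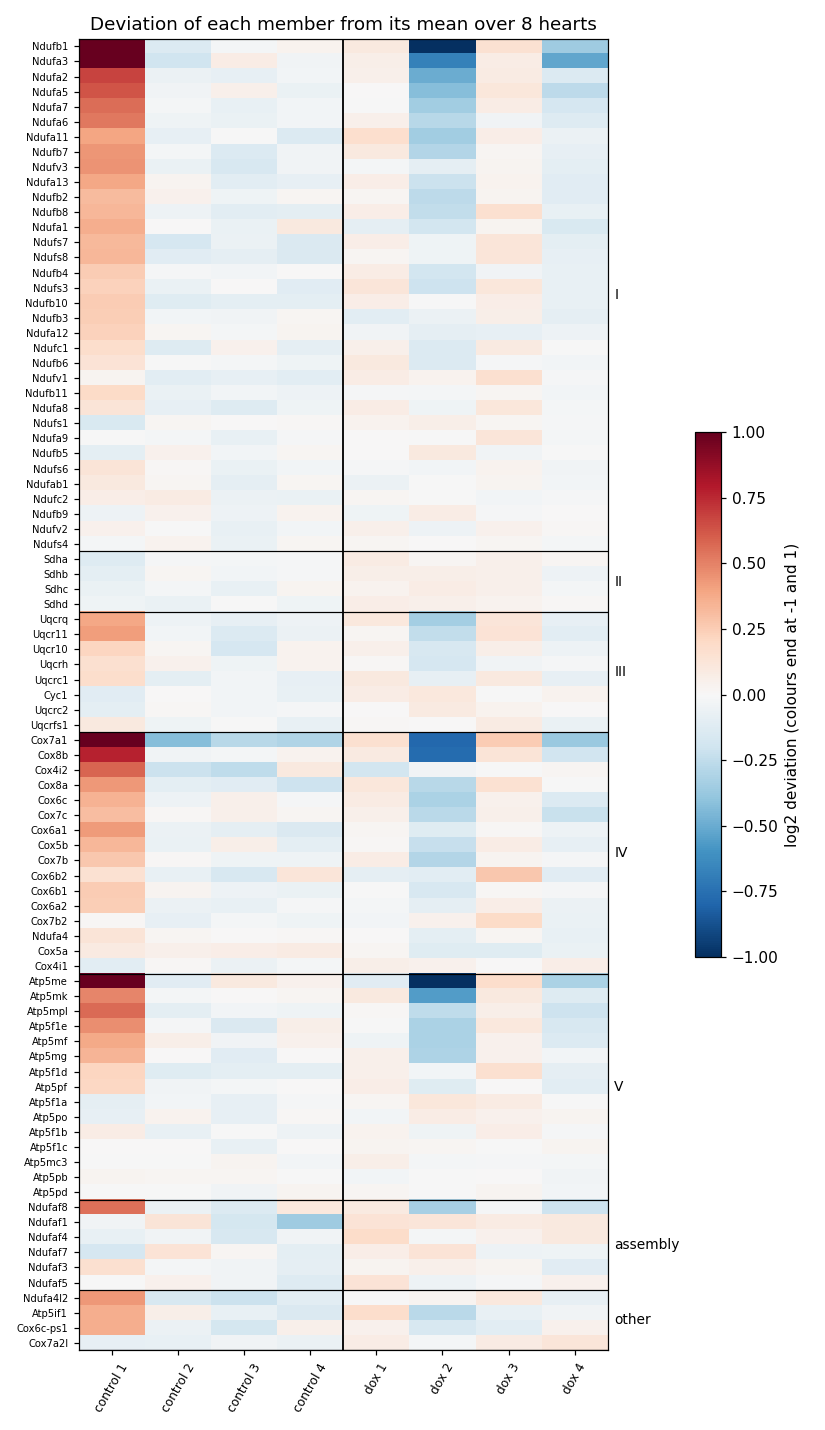
Heat map of the deviation of each of the 87 genes (rows, by complex) from its own mean over 8 hearts (columns), on a log2 scale. The column of control heart 1 is high for most rows outside complex II, and that of doxorubicin heart 2 is low for the same wide-ranging genes, Cox7a1, Ndufb1, Atp5me, Ndufa3 and Cox8b.

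Other measures of these hearts were looked up. In control heart 1 the 5 measured atrial markers had a median deviation of -1.96, the 6 fibroblast markers -0.60, the 4 smooth muscle markers -0.47 and the 6 macrophage markers -0.28, while the 9 cardiomyocyte markers had -0.013. The atrial markers were also low in control heart 4 (-1.63) and doxorubicin heart 3 (-1.76), where the 87 genes had medians of -0.028 and 0.043. Their summed level was between 38.8 and 56.5 in the controls and between 42.2 and 60.8 with doxorubicin. The endothelial, blood cell, brown fat and white fat markers had medians of 0.030, 0.035, 0.0086 and -0.14 in control heart 1. In doxorubicin heart 2 they had 0.11, -0.072, -0.039 and -0.19. There the atrial, fibroblast, smooth muscle, macrophage and cardiomyocyte markers had -0.020, -0.029, -0.38, 0.10 and 0.0024. Fibroblast, smooth muscle and macrophage markers had -0.20, -0.34 and -0.32 in control heart 4. In doxorubicin heart 3 these lists had -0.056, -0.33 and -0.079. By limma 0 genes of the marker lists passed the adjusted threshold between groups. At an unadjusted p under 0.05, 2 of 6 macrophage markers were higher (33.3%) and 1 of 9 brown fat markers was lower (11.1%). The other marker lists had none, and of all named genes 9.67% were higher and 7.07% lower. Probe sets for 48 cytosolic ribosomal protein genes had a median deviation of 0.12 in control heart 1 and -0.16 in doxorubicin heart 2, and 73 mitochondrial ribosomal protein genes had 0.13 in control heart 1 and 0.0052 in doxorubicin heart 2. The difference between the 3′ and 5′ control probe sets of hexokinase was 0.99 in control heart 1 and 0.76 in doxorubicin heart 2, in a range of 0.71 to 0.99. That of GAPDH was 0.26 and 0.19, highest in control heart 1, and that of beta-actin 0.65 and 0.79, highest in doxorubicin heart 2. Whether any of these has a part in the high and low values was not tested.

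Promoter sequences of the genes were taken from RefSeq on the GRCr8 build, from 250 bases before to 50 after the start, and 78 of the 87 genes matched an entry. Those of Cox7a1, Ndufb1 and Atp5me are shown because these genes varied most between hearts, and that of Ndufa6, a complex I accessory gene that also was highest in control heart 1 (11.74) and lowest in doxorubicin heart 2 (10.93), because it holds a YY1 motif. The promoters are chr1:94568966-94569265 on the plus strand for Cox7a1, chr6:126888815-126889114 on the minus strand for Ndufb1, chr14:1464610-1464909 on the plus strand for Atp5me and chr7:115750268-115750567 on the minus strand for Ndufa6. Each is written 5′ to 3′ along its gene. Capitals mark a match to the NRF1 motif in Atp5me, where the letters on both strands overlap, and to the YY1 motif in Ndufa6.
Cox7a1: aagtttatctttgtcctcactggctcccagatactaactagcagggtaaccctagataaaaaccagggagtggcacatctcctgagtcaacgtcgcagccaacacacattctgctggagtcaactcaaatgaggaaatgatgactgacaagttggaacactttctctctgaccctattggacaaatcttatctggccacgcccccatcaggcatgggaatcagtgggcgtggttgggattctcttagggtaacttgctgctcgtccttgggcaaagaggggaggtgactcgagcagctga
Ndufb1: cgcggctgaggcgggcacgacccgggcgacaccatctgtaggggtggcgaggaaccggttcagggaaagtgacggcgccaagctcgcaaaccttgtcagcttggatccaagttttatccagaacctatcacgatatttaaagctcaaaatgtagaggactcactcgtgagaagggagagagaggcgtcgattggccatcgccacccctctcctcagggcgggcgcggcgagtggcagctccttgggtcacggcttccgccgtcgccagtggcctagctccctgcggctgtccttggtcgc
Atp5me: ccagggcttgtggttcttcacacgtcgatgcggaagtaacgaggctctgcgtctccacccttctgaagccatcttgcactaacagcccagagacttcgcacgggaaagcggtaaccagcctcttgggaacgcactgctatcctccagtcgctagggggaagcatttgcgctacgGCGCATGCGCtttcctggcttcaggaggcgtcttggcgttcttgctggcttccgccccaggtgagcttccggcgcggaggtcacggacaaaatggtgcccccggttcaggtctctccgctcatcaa
Ndufa6: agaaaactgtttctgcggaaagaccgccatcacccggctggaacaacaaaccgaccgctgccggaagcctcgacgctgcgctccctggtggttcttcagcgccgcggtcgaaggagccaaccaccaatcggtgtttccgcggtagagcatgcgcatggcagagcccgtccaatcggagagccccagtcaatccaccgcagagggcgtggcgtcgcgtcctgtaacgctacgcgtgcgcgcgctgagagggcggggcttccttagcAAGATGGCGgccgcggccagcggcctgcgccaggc

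Of 4 motifs searched on both strands, chosen after the values were seen, the letters are GCGCATGCG for NRF1, CCGGAAGT for ETS factors such as GABP, AAGATGGCG for YY1 and TCAAGGTCA for the estrogen-related receptors (ERR). These factors are known regulators of nuclear genes for mitochondria. The NRF1 letters were in 7 of the 78 promoters (8.97%), against 1.66% of all 27457 promoters of this length. The ETS letters were in 8 (10.3%), against 4.01%. The YY1 letters were in 11 (14.1%), against 1.93%, and the ERR letters in 2 (2.56%), those of Sdhd and Atp5mc3, against 0.412%. At least 1 motif was in 27 promoters (34.6%), against 7.53% of all, and 1 gene, Uqcrc1, held 2 kinds, which did not overlap. Of the 8 genes whose range over the hearts was above 1, Atp5me held the NRF1 letters and Ndufa2 the YY1 letters, and the other 6 held none of the 4 motifs in this window. Of the genes with YY1 letters, Ndufa2, Ndufa6, Ndufb8, Atp5mf, Atp5pf and Ndufaf8 were highest in control heart 1 and lowest in doxorubicin heart 2. Ndufa9, Ndufs4, Ndufs6, Ndufs7 and Uqcrc1 did not have both traits. Whether the letters go with the pattern of the hearts was not tested. A match is a description of letters and not a site at which a factor was measured.

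Other genes of the pathway, from lists of assembly factors, coenzyme Q enzymes, carriers, the citric acid cycle and regulators, gave 1 call by limma. The lists held 7 to 24 measured genes each, and 2.97% of all named genes passed the same adjusted threshold. Gpd2, the mitochondrial glycerol-3-phosphate dehydrogenase that feeds electrons to coenzyme Q, rose. Its level was 6.30, 6.45, 6.05 and 6.23 in the controls and 6.59, 6.76, 6.67 and 6.88 with doxorubicin, with no overlap. The difference was 0.47 (SE 0.095, 1.38-fold, adjusted p = 0.0356 by limma). Without 1 heart at a time it was between 0.40 and 0.53, with an adjusted p from 0.0186 to 0.0998 that stayed under 0.05 only without control heart 2. With the hybridization controls as a covariate it was 0.19 (adjusted p = 0.885), and these controls were brighter in every control heart (10.2 to 10.6) than in any doxorubicin heart (9.97 to 10.1). It was the 1 call among 7 enzymes other than complexes I and II that feed coenzyme Q. Prodh, proline dehydrogenase, had the next smallest p of that list, with a difference of -0.23 (adjusted p = 0.345).

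By limma 0 genes of the lists of assembly factors passed the adjusted threshold. The counts at an unadjusted p under 0.05 that follow stand beside 9.67% of all named genes higher and 7.07% lower. Of 15 complex I assembly factors, 6 of which are among the 87, 4 were higher (26.7%) and none lower, with a list median of 0.06. Acad9, an assembly factor related to acyl-CoA dehydrogenases, was at 9.23, 9.03, 9.03 and 8.92 in the controls and 9.31, 9.45, 9.51 and 9.25 with doxorubicin, with no overlap. Its difference was 0.32 (adjusted p = 0.0939), and 0.38 (adjusted p = 0.043) without control heart 1. Tmem186, also of complex I assembly, differed by 0.16. Of 10 factors for complexes II and III, 1 was higher (10%) and none lower, led by Ttc19 (0.25) and then Bcs1l (0.11). Of 24 for complex IV, 4 were higher (16.7%) and 1 lower (4.17%), and the smallest p belonged to Lrpprc (0.19), which stabilizes mitochondrial mRNA, and Hccs (0.19), which attaches heme to cytochromes c. Of 7 for ATP synthase, 0 lay under the unadjusted threshold, and Atpaf1 (0.18) and Dmac2l (0.17) had the smallest p.

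In the other lists too, 0 genes passed the adjusted threshold, and at the unadjusted threshold the background is again 9.67% higher and 7.07% lower. Among 12 genes of coenzyme Q synthesis 1 was lower (8.33%), Pdss2, with a difference of -0.16, and Coq10b followed with -0.34. Among 8 carriers of adenine nucleotides and phosphate 1 was higher (12.5%), Slc25a5, an ADP/ATP carrier, with 0.15, and Vdac3 followed with 0.067. The 12 genes of the citric acid cycle had a median difference of 0.083, with 11 of 12 above 0 and 0 under the unadjusted threshold. Among all 14217 named genes, 7375 were above 0. The median deviation of the 12 genes was -0.053, -0.016, -0.061 and -0.022 in control hearts 1 to 4. In doxorubicin hearts 1 to 4 it was 0.060, 0.038, 0.047 and -0.0045. Suclg2 (0.14) and Idh3b (0.12) had the smallest p of that list. Among 16 regulators of respiratory genes 1 was higher and 1 lower at that threshold (6.25% each). Ppargc1b, a coactivator of mitochondrial genes, differed by -0.44 (adjusted p = 0.178), and Gabpa, the DNA-binding subunit of GABP, by 0.45 (adjusted p = 0.194), or by 0.58 (adjusted p = 0.0291) without control heart 2. Nrf1 differed by -0.14 (adjusted p = 0.573) on its brighter probe set, which stands for it here, and by -0.41 (adjusted p = 0.029) on its second, whose mean level was 4.59 in the controls and 4.18 with doxorubicin. Nrf1 is named after its values were seen.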

How the data were processed

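RNA of 8 rat hearts was hybridized to 8 Affymetrix arrays. Per the submitters' processing notes the authors made the values with RMA (background correction, quantile normalization and summary per probe set), and the deposited intensity values are linear; the software that ran RMA, with its version, is not given in the sources used here. Log2 of the deposited values was taken with no pseudocount. The 57 control probe sets (AFFX) were left out, which left 31042, and limma 3.58.1 in R 4.3.3 was fitted with lmFit and eBayes to all 8 arrays with 2 groups, two-sided, with Benjamini-Hochberg adjustment over all of these probe sets and a threshold of 0.05.

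Each gene was named from the platform annotation: 20826 probe sets have 1 symbol, 436 several and 9780 none, and all 87 symbols were found in RefSeq. Named with values were the highest and lowest difference in each complex, each gene with an unadjusted p under 0.05, isoform pairs, core subunits and, of each related list, the called genes or the 2 with the smallest p. The genes and lists were chosen with earlier results of these data known. Other genes are named by their range, overlap or promoter, after their values were seen.

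Arrays correlated between 0.985 and 0.996 and no pair of the 28 was identical. Their medians ran from 29.9 to 31.0 on the linear scale, and with 4 arrays a group their number limits the precision. Replicate numbers are shared by the groups in the labels. Same-numbered hearts had correlations of -0.18 to 0.059 between their deviations, which cannot show whether they were handled together. The labels give no pairing. Alternatives were repeated quantile normalization, median centring, an added 16, the dimmest 25% left out, other eBayes settings, array weights, other choices of probe set, adjustment over named genes, the hybridization controls as a covariate, a replicate block and each heart left out. On simulated data with the arrays' own means and spread, 75 of 100 probe sets changed 1.5-fold and 97 of 100 changed 2-fold were called, with 10 false calls, over 31042 probe sets. Figures were drawn with matplotlib 3.10.9 in Python 3.11.15.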

Additional observations from a re-analysis of the deposited data

Results flagged for a closer look

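In each group of 4 hearts, the gap between the most distant heart and its nearest neighbour was divided by the group's range, and 17 of 66 such ratios were above Dixon's 95% critical value for 4 samples. Chance flags about 1 in 20 groups. The ratios do not cover all the genes described here. They cover genes named by highest or lowest difference, unadjusted p, core role or isoform pair, and medians over sets of genes. An outlying heart can itself make a difference high or low, so the chance rate cannot be set against this count. The values are also not independent, since 13 of the 17 come from control heart 1.

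Control heart 1 was far above the other controls for Cox7a1 (ratio 0.933), Cox8b (0.916), Ndufb1 (0.877), Cox6a1 (0.849), Atp5me (0.848) and Cox8a (0.832). It was far below them for Sdha (0.962) and Ndufs1 (0.933). It was above them in the median deviation of the 87 genes (0.907), of complex I (0.886), of complex IV (0.892) and of ATP synthase (0.844), and below them in that of complex II (0.88). Among the doxorubicin hearts, heart 1 was high for Atp5mc3 (0.857), heart 2 low for Cox6b1 (0.853), heart 3 high for Cox6b2 (0.921) and heart 4 low for Sdhb (0.932).

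A probe set with 2 symbols in the annotation, both of the Ndufa family, lay outside the rule, so no gene is named from it. Its level was 11.13, 11.29, 11.36 and 11.32 in the controls and 11.87, 11.82, 12.22 and 11.85 with doxorubicin, with no overlap. It rose by 0.666 on the log2 scale (SE 0.095, 1.59-fold, adjusted p = 0.00583 by limma). Without any 1 heart the difference was between 0.57 and 0.70, with adjusted p from 0.00553 to 0.0191. With the hybridization controls as a covariate it was 0.68 with an adjusted p of 0.282.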

How the results depend on the processing

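No alternative called any of the 87 genes, but each rests on 4 hearts a group. With the hybridization controls as a covariate 92 probe sets were called in place of 687. Adjusted over 14217 named genes alone, 500 genes were called in place of 422. The call among coenzyme Q feeders became 0 with that covariate, with the replicate block, with the mean of a gene's probe sets and with the second brightest probe set. The second brightest probe set, which 9 of the 87 genes have, gave a median difference of 0.071 (complex I 0.15), a call for 1 regulator (Nrf1, -0.41), and opposite signs for Atp5if1 (0.096) and Atp5me (0.017). Signs also turned for Cox6b2 (0.0027) and Cox8a (0.016) with centred arrays, and for Cox8a (0.042) with array weights. The replicate block called 511 probe sets and none of the 87 genes (lowest adjusted p = 0.236 by limma), and it ended the Gpd2 call (adjusted p = 0.0604). Leaving out 1 heart at a time gave 397 to 854 called probe sets, fewest without doxorubicin heart 1 and 444, 452 and 435 without control heart 3, doxorubicin heart 2 and doxorubicin heart 3. It gave 0 to 1 calls each for complex I assembly, coenzyme Q feeders and regulators. Sign changes are listed for genes named by highest or lowest difference, core role or isoform pair, and not for all 87. These differences ran from -0.18 to 0.00059 (Atp5if1), -0.013 to 0.016 (Atp5mc3) and -0.20 to 0.072 (Cox4i2). They ran from -0.13 to 0.063 (Cox6a1), -0.085 to 0.023 (Cox6a2) and -0.11 to 0.028 (Cox6b2). The last were -0.57 to 0.15 (Cox7a1), -0.075 to 0.14 (Cox8a) and -0.0101 to 0.048 (Uqcrfs1). Others of the 87 turned too: 34 were above 0 with all hearts and 55 without control heart 1. Cox6b2, Cox7b2 and second probe sets near the dim level have little signal over background. Why these values moved was not tested. The median over complex III was above 0 with centred arrays (0.0044), array weights (0.0018), the second brightest probe set (0.038) and without control heart 1 (0.033) or doxorubicin heart 2 (0.0064). Without control heart 1 the medians over all 87 genes, complex I and complex IV were above 0 too. Medians over classes of subunit, with each heart left out (chosen after seeing the data), ran from -0.12 to -0.00011 for complex I accessory, 0.0012 to 0.084 for its core, -0.14 to 0.013 for complex III accessory and -0.26 to -0.08 for the membrane part of ATP synthase.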

Other observations

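Besides the probe set with 2 Ndufa-family symbols, 8 other probe sets carried several symbols of which at least 1 matched the rule, among them both that list Cycs. Their differences, doxorubicin minus control, ran from -0.13 to 0.068 on the log2 scale, and the lowest adjusted p by limma among the 8 was 0.621.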
